A study of Homo sapiens with 4 samples.

Results

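The interferon-stimulated genes examined here are 41 genes, found by symbol among the 33694 genes of the count tables, and each symbol matched a single row. They were followed in OVCA420, an established epithelial ovarian cancer cell line, by single-cell RNA-seq with the 10x Genomics 3′ kit. Cells were left untreated (Ctrl) or given 10 ng/mL TGF-β1, an inducer of the epithelial-mesenchymal transition (EMT), for 1, 3 or 7 days, with the cytokine renewed during culture and all cells harvested together. There was 1 library per time point, of a single line and without interferon treatment in any group, so time point and library cannot be told apart and no test between time points could be made. Values below that are listed without a library follow time order (Ctrl, 1-day, 3-day, 7-day). After filtering, 933, 937, 705 and 569 cells were analysed. They come from 3170 barcodes of the 10710 in the cell lists, so the sums below describe a portion of each library.

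Interferons are cytokines secreted by cells that detect viral or misplaced nucleic acid. Type I and type III interferons act through receptors and the JAK1 and TYK2 kinases on the complex ISGF3, which includes STAT2 and IRF9. ISGF3 binds interferon-stimulated response elements (ISREs) at the antiviral genes, whereas interferon-γ acts mainly at GAS elements. Many of the antiviral genes are also expressed at a low basal level without added interferon, and epithelial tumor cells can make CXCL10 and related chemokines that attract T cells.

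The position of ISRE-type letters upstream of the genes is shown first because several results below concern the genes that carry them. Promoter sequences were taken from RefSeq (GRCh38.p14), which held 33 of the 41 genes. The letters GAAANNGAAA, on either strand within 250 bases before a transcription start, occurred for 20 of these 33 genes (60.6%), against 3.71% of all 27305 genes in the table. The GAS-type letters TTCNNNGAA, which read alike on both strands and can share bases with GAAANNGAAA, occurred for 12 of 33 (36.4%), against 8.09% of all genes. A match describes the letters and is not evidence of a bound site. IFIT1, IFIT3 and CXCL10 are shown because most of their 7-day UMIs lay in 1 or 2 cells, ISG15 and IFI44 because their levels were highest at 7-day, and ISG20 and SAMD9 because theirs were highest at 1-day. Each sequence is 5′ to 3′ on the strand of its gene, and the capitals mark the motif or its reverse complement (TTTCNNTTTC). In ISG15 the capitals hold 2 overlapping matches, and where a gene has several starts the letters before only 1 of them are shown.
IFIT1, chr10:89392487-89392549, plus strand: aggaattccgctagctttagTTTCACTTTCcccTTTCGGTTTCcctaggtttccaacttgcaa
IFIT3, chr10:89327821-89327904, plus strand: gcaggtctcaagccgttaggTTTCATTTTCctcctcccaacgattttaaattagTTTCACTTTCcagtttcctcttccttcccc
CXCL10, chr4:76023689-76023738, minus strand: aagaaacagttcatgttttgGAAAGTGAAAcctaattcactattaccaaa
ISG15, chr1:1013364-1013419, plus strand: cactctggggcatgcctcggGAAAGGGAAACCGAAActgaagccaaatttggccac
IFI44, chr1:78649751-78649800, plus strand: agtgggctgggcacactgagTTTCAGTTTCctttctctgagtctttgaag
ISG20, chr15:88638927-88638976, plus strand: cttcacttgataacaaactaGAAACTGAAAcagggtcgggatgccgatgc
SAMD9, chr7:93118086-93118135, minus strand: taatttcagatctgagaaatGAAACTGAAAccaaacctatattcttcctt

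The first base of the motif lay 116 and 103 bases before the start of IFIT1, 221 before that of CXCL10, 69 before that of ISG20 and 136 before that of SAMD9. OAS1, STAT2, IRF9, PSMB9 and CXCL11 were among the 13 genes without GAAANNGAAA in this window. OAS1, IRF9 and CXCL11 held the GAS-type letters instead. IFIT2 and OASL were among the 8 genes not found in the promoter table.

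Levels are given as counts of unique molecular identifiers (UMIs) summed over the analysed cells of a library and scaled by the library's total (CPM). Brackets after a level or a log2 ratio hold exact 95% counting intervals, which cover counting error only and not the spread between cultures. The sums came to 25382817 to 32949874 UMIs per library, so that 1 UMI was worth 0.0303 to 0.0394 CPM. Of the 41 genes, 25 averaged at least 1 CPM over the 4 libraries, 14 were detected below this level, and IFITM1 and TRIM22 had no UMI in any library. In ratios a count of 0 is set to a floor of 3 counts, or 0.118 CPM in the 7-day library and 0.10 CPM in Ctrl. The exact interval of a count of 0 reaches 0.145 CPM at 7-day and 0.123 CPM in Ctrl. A further 4 genes, IFI44L, OAS2, BST2 and XAF1, had at most 2 UMIs in each library, so no direction can be read for them.

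At 7-day, 12 of the 25 genes were at least 2-fold above Ctrl (48%), against 12.9% of all genes with a mean of at least 1 CPM. The 12 were STAT2 and IRF9, the RNA sensors DDX58 and IFIH1, PSMB9 of the immunoproteasome, IFITM3, ISG20, IFI6, IFI44, IFIT2, OASL and EPSTI1. OAS1 alone was at least 2-fold lower (background 7.85%). IFI44, IFIT2, OASL and IRF9 averaged at least 1 CPM only through the 7-day library. With the mean taken over the other 3 libraries, 8 of 21 genes were at least 2-fold above Ctrl at 7-day (38.1%, background 12.2%) and OAS1 was lower (background 8.3%). The median log2 ratio to Ctrl over the 25 genes was 0.91, and that over all genes was 0.08. It was above 0 for 20 of the 25 genes and for 55.4% of all genes. The 20 and the median include IFI44, IFIT2, OASL and IRF9, which entered the set through their 7-day level. Neither is given for the 21 genes.

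Before 7-day there was little difference from Ctrl over the list as a whole. The median was −0.05 at 1-day (all genes −0.07) and 0.15 at 3-day (all genes 0.01). EPSTI1 and ISG20 were at least 2-fold above Ctrl at 1-day (background 10.2%) and again at 3-day (background 10.9%). At 1-day IFIT2, OAS1 and OAS3 were at least 2-fold lower (3 of 25, or 12%, background 10.6%), and at 3-day HERC6 and OAS1 were (8%, background 8.54%). IFIT2, with 13 UMIs in Ctrl and 1 at 1-day, averaged 1 CPM only through the 7-day library. These shares lie near the background.

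From 1-day to 3-day IFIT2 and OAS3 were at least 2-fold higher (8%, background 5.69%) and OAS1 and OASL at least 2-fold lower (8%, background 4.44%). IFIT2 and OASL averaged 1 CPM only through the 7-day library, so each share includes 1 gene that entered in this way. With so few genes, neither share can be told from its background. From 3-day to 7-day 7 genes were at least 2-fold higher, namely IFI44, HERC6, PSMB9, IFIT2, OAS1, OASL and IRF9 (28%, background 2.49%), and none at least 2-fold lower (background 1.68%). With the mean taken over the libraries other than 7-day, 3 of 21 genes were at least 2-fold higher (14.3%, background 1.98%), namely HERC6, PSMB9 and OAS1, and none lower (background 1.84%). The ratio of 7-day to 3-day was above 0 for 24 of 25 genes and for 60.1% of all genes, with medians of 0.75 and 0.07. Scaling by TMM factors moved the all-gene median of this ratio to −0.03 and left 23 of the 25 genes above 0. In all, 17 of the 25 genes had their highest level at 7-day and none their lowest. Of all genes, 34.1% were highest and 17.2% lowest at 7-day. Among the 17 are IFI44, IFIT2, OASL and IRF9, which averaged 1 CPM only through the 7-day library. They also count among the 24 genes above 0 and enter the median of 0.75, neither of which is given for the 21 genes. The lowest level fell in Ctrl for 11 of the 25 genes, at 1-day for 9 and at 3-day for 5, against 33.6%, 35.2% and 14.04% of all genes.

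**Figure D1:**
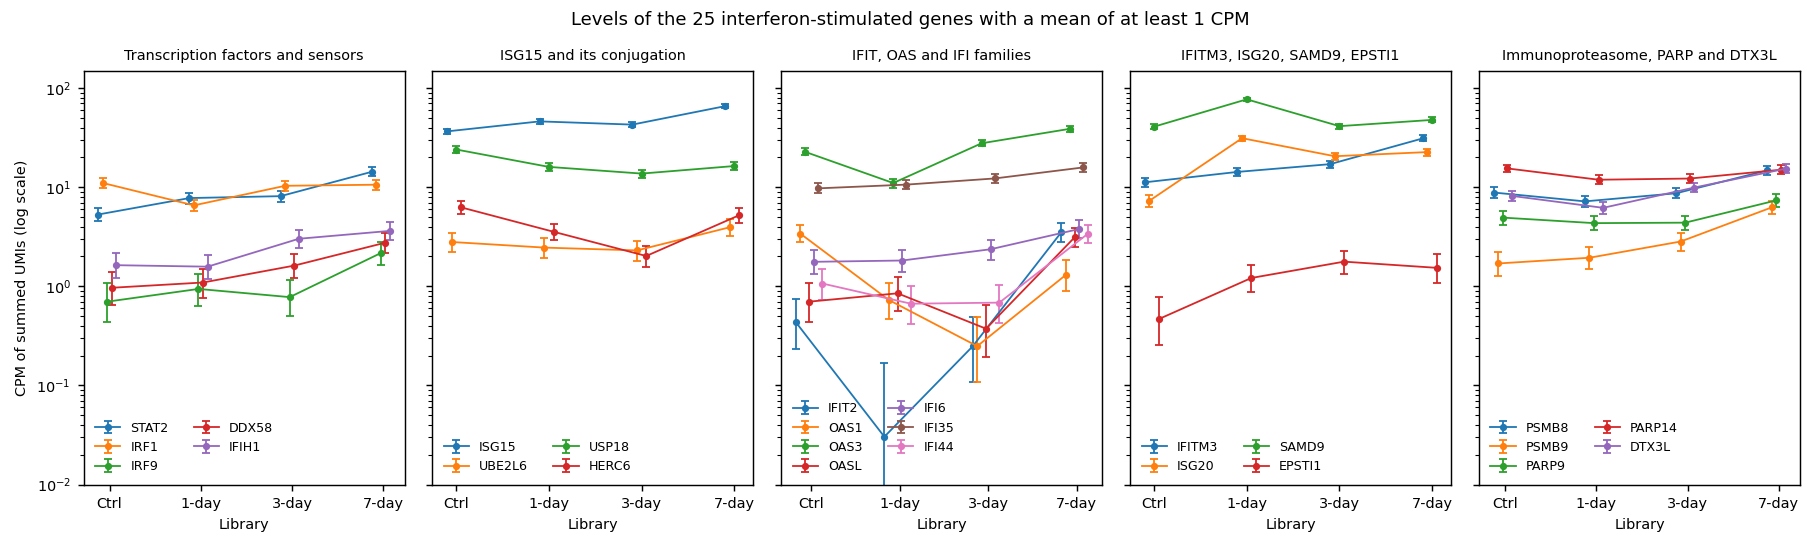
Level in each library (CPM, log scale, bars are exact 95% counting intervals) of the 25 genes with a mean of at least 1 CPM, in 5 panels by role. Most lines end at their highest point at 7-day; OAS1 runs from 3.40 CPM in Ctrl to 0.249 at 3-day and 1.30 at 7-day, and IFIT2 rests on 1 UMI at 1-day.

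Summed over all 41 genes, the level was 231 CPM (225 to 236) in untreated cells. It was 269 CPM (263 to 275) and 249.7 CPM (244 to 255) after 1 and 3 days, and 368 CPM (360.5 to 375) after 7 days. The 3 genes with the highest levels, SAMD9, ISG15 and OAS3, weigh heavily in these sums. Without them the sums were 130.5, 135, 138 and 216 CPM. A sum over a library cannot tell fewer expressing cells from less RNA per cell.

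Part of the 7-day signal lay in 2 cells. Over IFIT1, IFIT2, IFIT3, OASL, CXCL10 and CXCL11, these cells held 200 and 57 UMIs (cells A and B), and no other 7-day cell held more than 5. In the remaining libraries no cell held more than 2. Because they were chosen by these UMIs, their level of the 6 genes is a description. Values without cells A and B are given wherever they changed a call, and the cells are described after the genes. Without them 9 of the 23 genes that still averaged 1 CPM were at least 2-fold above Ctrl (39.1%, background 12.9%) and OAS1 was at least 2-fold lower (4.35%, background 7.87%). The median log2 ratio was then 0.78. IFIT2 and OASL no longer averaged 1 CPM. Against 3-day, 5 of the 23 were then at least 2-fold higher (21.7%, background 2.42%) and none was lower (background 1.72%). Of the 23, 21 were above 0, with a median of 0.67. IFI44 and IRF9, which averaged 1 CPM only through the 7-day library, are among the 9, the 5 and the 21, and enter both medians.

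Of the 4 transcription factors, STAT2, IRF7 and IRF9 were highest at 7-day and IRF1 was highest in Ctrl. STAT2, the ISGF3 subunit that is specific to type I and III interferon, was at 5.30, 7.77, 8.12 and 14.3 CPM. Its log2 ratio to Ctrl was 0.55 (0.26 to 0.85) at 1-day and 1.43 (1.16 to 1.71) at 7-day. IRF9, the DNA-binding subunit of ISGF3, had 21, 31, 25 and 55 UMIs, or 0.700, 0.941, 0.778 and 2.17 CPM. Its 7-day ratio was 1.63 (0.88 to 2.43), and the Ctrl, 1-day and 3-day intervals of its level overlapped one another. IRF7, which amplifies type I interferon production, stayed below 1 CPM on average with 7, 23, 23 and 31 UMIs. That is a log2 ratio of 1.58 (0.31 to 3.05) at 1-day and 2.39 (1.18 to 3.82) at 7-day, or 0.88 at 7-day after every cell was thinned to 18000 UMIs. IRF1, an early target of interferon-γ, was at 11.0, 6.56, 10.3 and 10.6 CPM. Only its 1-day level stood apart, at −0.75 (−1.01 to −0.50).

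Both cytoplasmic RNA sensors were highest at 7-day. DDX58 (RIG-I), which detects 5′-triphosphate RNA, had 29, 36, 52 and 70 UMIs, or 0.967, 1.09, 1.62 and 2.76 CPM. Its 7-day log2 ratio was 1.51 (0.87 to 2.19). IFIH1 (MDA5), which detects long double-stranded RNA, was at 1.63, 1.58, 3.02 and 3.62 CPM. For IFIH1 most of the difference appeared between 1-day and 3-day, with a ratio of 0.94 (0.43 to 1.45), and the 7-day to 3-day ratio of 0.26 (−0.16 to 0.69) did not leave 0. Its 7-day ratio to Ctrl of 1.15 fell below 2-fold, to 0.95, without cells A and B.

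ISG15 and the enzymes that attach or remove it did not move together. ISG15, a ubiquitin-like protein that is joined to target proteins, was at 36.6 (34.4 to 38.8), 46.1, 42.8 and 65.7 CPM (62.6 to 68.9). The 7-day log2 ratio was 0.85 (0.73 to 0.96). UBE2L6, its conjugating enzyme, was between 2.30 and 2.80 CPM up to 3-day and reached 3.94 CPM at 7-day, a ratio of 0.49 (0.06 to 0.93), but of −0.23 in cells thinned to 18000 UMIs. USP18, which removes ISG15 and also restrains the type I receptor, was highest in Ctrl. Its levels were 24.0, 16.0, 13.7 and 16.3 CPM, and its 7-day ratio was −0.55 (−0.73 to −0.38). Reads of near-identical USP18 copies may be split or lost in counting, so its absolute level is uncertain. HERC6, a HERC-family ubiquitin ligase, was lowest at 3-day, at 6.27, 3.55, 2.02 and 5.20 CPM. HERC6 was at −1.63 (−2.06 to −1.22) at 3-day and at −0.27 (−0.60 to 0.06) at 7-day. Without cells A and B the 7-day value was −0.37 (−0.71 to −0.03), so that its interval left 0.

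The IFIT genes, a family of antiviral genes, lie side by side on chromosome 10 and include IFIT2 (chr10:89283694-89309271), IFIT3 (chr10:89327307-89377473) and IFIT1 (chr10:89392546-89406487, all plus strand, GRCh38, GENCODE 44). They were near the limit of detection in every library but the last. IFIT1 had 11, 1, 0 and 43 UMIs. IFIT2 had 13, 1, 8 and 89 UMIs, and IFIT3 had 5, 3, 2 and 20. All 3 genes were lower at 1-day than in Ctrl, with log2 ratios of −3.59 (−9.02 to −0.81) for IFIT1, −3.84 (−9.25 to −1.10) for IFIT2 and −0.87 (−3.56 to 1.49) for IFIT3. For IFIT3 the interval holds 0.

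At 7-day cells A and B held 88.4% of the IFIT1 UMIs, 83.1% of the IFIT2 UMIs and 80% of the IFIT3 UMIs. The 7-day log2 ratios were 2.21 for IFIT1, 3.02 for IFIT2 and 2.24 for IFIT3 with these cells. Without them they were −0.89 (−2.77 to 0.75), 0.45 (−0.72 to 1.64) and −0.08 (−2.41 to 2.14), so that none could be distinguished from Ctrl at this depth. The 567 other 7-day cells held 5, 15 and 4 UMIs of the 3 genes, and at most 2 of any of them in a single cell.

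Among the genes of the OAS family, which make or resemble enzymes that activate RNase L, no pattern was shared. OAS1, OAS3 and OAS2 are neighbors on chromosome 12, at chr12:112905856-112933219, chr12:112938051-112976460 and chr12:112978395-113011723, all on the plus strand. OAS1 had 102, 24, 8 and 33 UMIs, or 3.40, 0.728, 0.249 and 1.30 CPM. All 3 treated libraries were below Ctrl, at −2.22 (−2.93 to −1.57), −3.77 (−5.02 to −2.74) and −1.39 (−2.00 to −0.81). The 7-day to 3-day ratio was 2.38 (1.24 to 3.71). OAS3 was below Ctrl at 1-day and above it later, at 22.8, 11.0, 27.8 and 38.8 CPM. Its ratios to Ctrl were −1.05 (−1.24 to −0.86), 0.28 (0.14 to 0.43) and 0.77 (0.63 to 0.91). With TMM factors the 1-day value was −0.95, just short of 2-fold. In G1 cells the 3-day value was −0.10. OAS2 had 1, 1, 1 and 2 UMIs.

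OASL, a catalytically inactive relative of OAS1 that sits apart at chr12:121017763-121039246, had 21, 28, 12 and 79 UMIs. Its 7-day ratio of 2.15 (1.44 to 2.92) also rested on the same cells, which held 73.4% of its 7-day UMIs. Without them it was 0.25 (−0.70 to 1.19).

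GBP1, GBP2 and MX1 were read from few counts. GBP1, a guanylate-binding protein of the interferon-γ response, had 16 UMIs in Ctrl and 2, 1 and 3 thereafter. Its ratio was −3.14 (−6.30 to −1.05) at 1-day and −2.17 (−4.60 to −0.37) at 7-day. GBP2 had 2, 1, 2 and 8 UMIs. MX1, a dynamin-like GTPase that traps viral nucleocapsids, had 16, 8, 14 and 27, with ratios to Ctrl of −1.14 (−2.57 to 0.17) at 1-day and 1.00 (0.05 to 1.99) at 7-day. The 7-day to 3-day ratio of MX1 was 1.29 (0.31 to 2.33).

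IFITM proteins hinder the entry of enveloped viruses, and IFITM1, IFITM2 and IFITM3 are adjacent at the end of chromosome 11. Their coding sequences are so alike that reads may be shared among them, and the division between the genes is uncertain. IFITM3 was at 11.2, 14.3, 17.1 and 31.1 CPM. The intervals of its 4 levels did not overlap and followed time order, and its 7-day log2 ratio was 1.47 (1.29 to 1.66). IFITM2 had 3, 8, 8 and 44 UMIs, a 7-day ratio of 4.12 (2.47 to 6.45) that was 2.13 in G1 cells. None of its 7-day UMIs were in cells A and B, and no cell had more than 2.

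Other antiviral effectors had their peak at different times. ISG20, an exonuclease that degrades RNA, was at 7.30 CPM (6.37 to 8.33) in Ctrl and at 31.2 (29.4 to 33.2) at 1-day, then at 20.5 and 22.6 CPM. The 1-day ratio was 2.10 (1.88 to 2.31), and it was 1.55 among cells called G1. SAMD9, a restriction factor of poxviruses, was also highest at 1-day. Its levels were 40.8, 77.0, 41.3 and 47.7 CPM, a 1-day ratio of 0.92 (0.82 to 1.02) that reached 1.02 with TMM factors and was 0.63 in G1 cells. The share of cells called G1 was 25.4%, 74.7%, 48.9% and 40.4%, and the part of cell cycle phase in these levels was not tested further.

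IFI6, a protein of the endoplasmic reticulum and mitochondria, had 53, 60, 76 and 96 UMIs. Its 7-day ratio was 1.10 (0.60 to 1.61). IFI44 had 32, 22, 22 and 86 UMIs, a ratio of 1.67 (1.07 to 2.30). Although 17 of the 86 lay in cells A and B, the IFI44 ratio without them was 1.36 (0.73 to 2.01). IFI35, at 9.73, 10.6, 12.3 and 15.8 CPM, reached 0.70 (0.48 to 0.92), but 0.14 in G1 cells. IFI27 had 11, 13, 17 and 18 UMIs, and all its intervals held 0. EPSTI1 was lowest in Ctrl with 14 UMIs, against 40, 57 and 39. Its ratio was 1.38 at 1-day, 1.93 at 3-day and 1.72 (0.81 to 2.71) at 7-day, and the 7-day value was 0.27 in G1 cells.

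PSMB8, PSMB9, PARP9 and DTX3L all had their highest level at 7-day. PSMB9 and PSMB8 encode immunoproteasome subunits that change how peptides are cut for MHC class I. They overlap head to head on chromosome 6, at chr6:32844136-32859851 (plus strand) and chr6:32840717-32844679 (minus strand). PSMB9 was at 1.70, 1.94, 2.83 and 6.26 CPM. Its 7-day ratio was 1.88 (1.42 to 2.37), no UMI of it was in cells A and B, and the ratio was 2.05 in G1 cells. PSMB8 was at 8.83, 7.19, 8.68 and 14.8 CPM, at −0.30 (−0.56 to −0.04) at 1-day and at 0.74 (0.51 to 0.97) at 7-day, but at 0.24 in G1 cells. DTX3L and PARP9 are partners in DNA repair and also overlap head to head, at chr3:122564338-122575203 (plus strand) and chr3:122527924-122564577 (minus strand). DTX3L was at 8.17, 6.19, 9.93 and 15.4 CPM, and its 7-day ratio was 0.91 (0.68 to 1.15). PARP9 was at 4.93, 4.34, 4.39 and 7.37 CPM, a ratio of 0.58 (0.26 to 0.90). PARP14, another ADP-ribosyltransferase, was at 15.5, 11.9, 12.2 and 15.01 CPM, and its 7-day ratio of −0.04 (−0.24 to 0.16) held 0.

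The chemokines CXCL10 (chr4:76021118-76023497) and CXCL11 (chr4:76033682-76041415, both minus strand) share the receptor CXCR3 on activated T cells. CXCL10 had 2, 0, 1 and 65 UMIs. A single cell, cell A, held 64 of the 65, and the only other UMI lay in 1 further cell. The 7-day ratio of 5.26 (3.35 to 8.34) therefore describes 1 cell. CXCL11 had 0, 0, 4 and 32 UMIs. Its 7-day level was 12.6-fold that of the floor used for the count of 0 in Ctrl (3 counts in the library), a log2 ratio of 3.66. Computed in the same way, this was 2.21 in thinned cells, 2.40 in G1 cells and 2.26 without the 10 cells with most CXCL11 UMIs. Fewer Ctrl UMIs enter the thinned and G1 values, so that 3 counts stand for a higher level there. Those lower ratios therefore cannot be read as a weaker signal. Of the 32 UMIs, 7 were in cell A, none in cell B and 25 in 21 other cells. The CXCL11 signal was therefore spread over more cells than that of CXCL10. In 7-day cells thinned to equal depth, none of the 7 cells with CXCL11 other than cell A had CXCL10. No thinned cell without CXCL11 had CXCL10 either, so an overlap outside cell A could not have been seen.

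**Figure D2:**
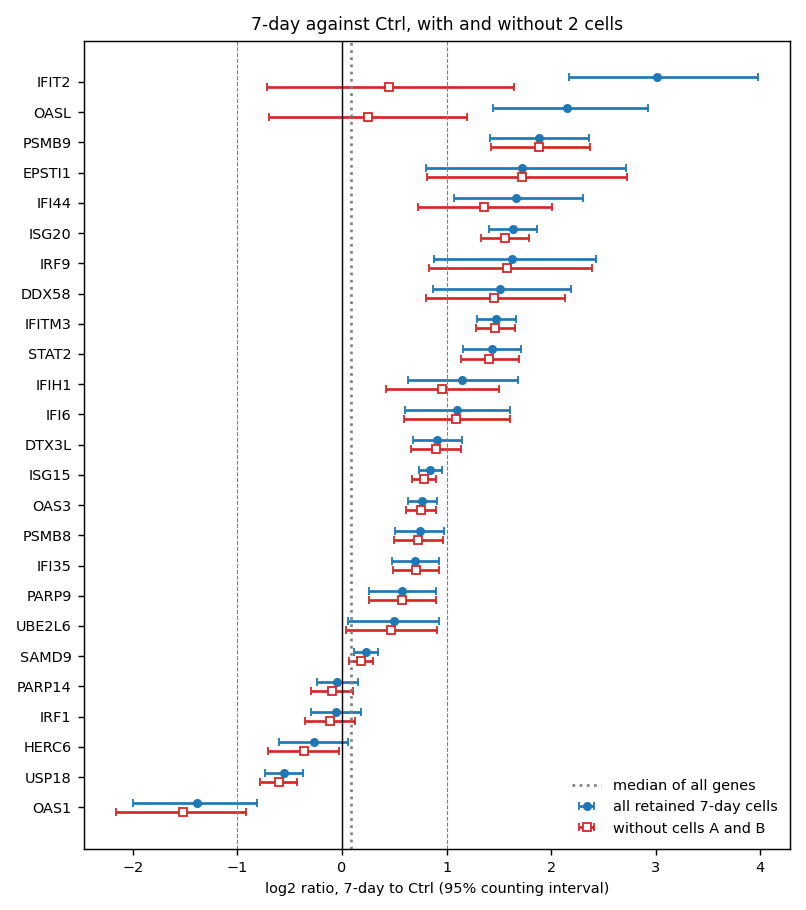
Log2 ratio of 7-day to Ctrl for the 25 genes, with all analysed 7-day cells (filled circles) and without cells A and B (open squares), bars being exact 95% counting intervals, dashed lines 2-fold and the dotted line the median of all genes. IFIT2 moves from 3.02 to 0.45 and OASL from 2.15 to 0.25, while PSMB9, IFITM3, STAT2 and ISG20 stay between 1.41 and 1.89.

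Shares of cells with a UMI rose with depth, which ranged from a median of 30270 UMIs per cell in Ctrl to 43553 at 3-day. They are therefore given for cells thinned to 18000 UMIs, with the unthinned value after. No cell type that should lack these genes was present, and a background from free RNA could not be set beside these shares. ISG15 was detected in 47.9% (44.5 to 51.3), 57.3%, 52.0% and 66.5% (62.4 to 70.4) of thinned cells, and the unthinned 7-day share was 88.9%. OAS3 was detected in 29.3%, 16.7%, 34.6% and 47.0% of thinned cells (75.04% unthinned at 7-day). IFITM3 went from 18.2% to 39.0% (63.1% unthinned), STAT2 from 8.06% to 20.2% (37.4% unthinned) and PSMB9 from 2.49% to 12.02% (22.1% unthinned). ISG20 went from 9.12% in Ctrl to 31.3% at 1-day and 26.8% at 7-day (49.7% unthinned). IFIT1 was found in 0.474% of thinned Ctrl cells and 0.729% (0.199 to 1.85) at 7-day, and IFIT2 in 0.829% and 1.46% (0.631 to 2.85).

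To ask whether expression sat in few cells, the share of cells with a UMI was divided by the share that the same UMIs would give if they fell on cells in proportion to depth. Across genes with a mean of at least 1 CPM and at least 30 UMIs in the library the median of this quotient was 0.973 in Ctrl and 0.972 at 7-day. Over the interferon-stimulated genes it was 0.952 (20 genes) and 0.935 (25 genes). At 7-day all 25 were below the all-gene median and 7 were below 0.856, the value that 5% of genes fall under. The 25 include IFI44 (0.682), IRF9, IFIT2 and OASL, which averaged 1 CPM only through the 7-day library. Most genes also lay below the median in Ctrl (18 of 20), at 1-day (15 of 21) and at 3-day (16 of 20). In each of these libraries 2 genes were below its 5% value. IFIT2 was at 0.184 and OASL at 0.300, the only ones of the 25 below 0.5, where 0.264% of all genes lay. Both averaged 1 CPM only through cells A and B (0.326 and 0.688 CPM without them). They entered this set through that concentration, so the share of all genes is no background for them. Below the level of 1 CPM, CXCL10 was at 0.0328, IFIT1 at 0.170, IFIT3 at 0.306 and CXCL11 at 0.709. ISG20 was uneven in every library, at 0.850, 0.726, 0.836 and 0.810, and IFITM3 likewise at 0.832, 0.773, 0.762 and 0.873. In the 3 earlier libraries none of the interferon-stimulated genes with at least 30 UMIs was below 0.5. IFIT2 and OASL had fewer than 30 UMIs in each of them and were not counted, so no difference in time can be read.

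**Figure D3:**
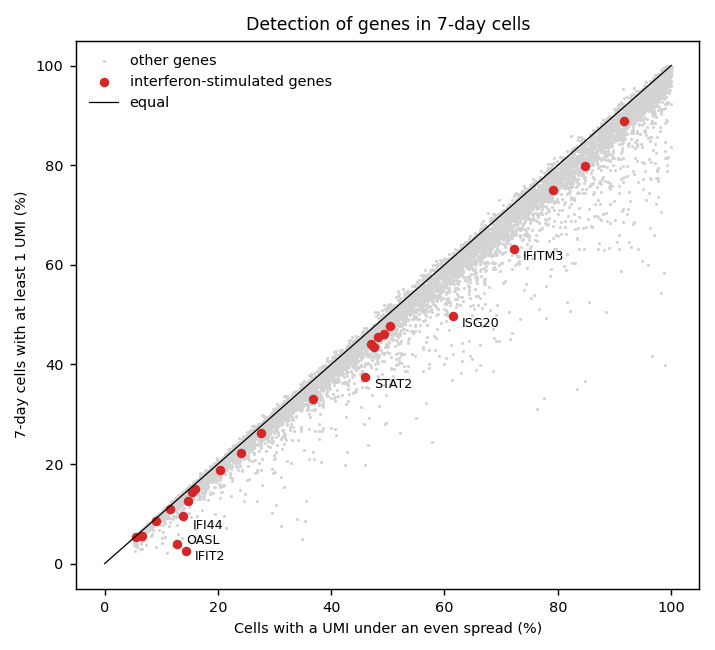
Share of 7-day cells with at least 1 UMI of a gene against the share under an even spread (%), for genes with at least 30 UMIs and a mean of at least 1 CPM; red points are the interferon-stimulated genes with a mean of at least 1 CPM, and the line marks equality. IFIT2 and OASL lie far below the line, at 2.64% against 14.4% and 3.87% against 12.9%, and ISG20, IFITM3, STAT2 and IFI44 lie below most genes of like level.

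Cells A and B were chosen by 6 of the genes, so the others are given apart. The 35 genes not used in the choice took 0.159% of all UMIs in cell A and 0.807% in cell B, against 0.0345% in the other 567 cells together. With the 6 genes included these shares were 0.399% and 1.11%. Cell A held UMIs of 17 of the 35 genes and cell B of 20, against a median of 8 in the other cells. Of all 41 genes they held 23 and 24, 18 of them shared, against a highest value of 20 elsewhere. These numbers of genes rise with depth and were not matched for it. Cell A had 83112 UMIs and cell B 19093, against a median of 43382 in the other cells. IFIT2 had 61 UMIs in cell A and 13 in cell B, IFIT1 30 and 8, IFIT3 8 and 8, and OASL 30 and 28. The pair were unlike in the chemokines and in IFI44, since cell A had 64 UMIs of CXCL10 and 7 of CXCL11 and cell B none of either, whereas cell B had 15 of IFI44 and 10 of IFIH1 against 2 and 2.

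Of the 23 genes that averaged at least 1 CPM and were not used in the choice, 14 were above the level of the other 567 cells in both cells (60.9%), against 12.3% of all genes. The 23 include IFI44 and IRF9, which averaged 1 CPM only through the library that holds these cells. IFI44, with 2 and 15 UMIs, is among the 14, and cells A and B held 19.8% of its UMIs in that library. IRF9, with 2 and 0, is not among the 14. The share without these genes is not given. ISG15 had 38 UMIs in cell A and 39 in cell B, where the level of the other 567 cells would have given 5.23 and 1.20 at these depths. SAMD9 had 25 and 18 (3.84 and 0.883 at the level of the others), ISG20 8 and 24 (1.78 and 0.409), and USP18 10 and 6 (1.31 and 0.301). The excess did not cover the whole list. IFI35 had 0 and 1 UMIs (1.32 and 0.303) and PARP9 0 and 1 (0.611 and 0.140). IFITM3, with 4 and 2 (2.57 and 0.591), and PSMB8, with 2 and 3 (1.22 and 0.279), lay above that level in both cells, but on few UMIs. Neither cell held a UMI of PSMB9, IFITM2, MX1, EPSTI1, IRF7, GBP1 or GBP2. For PSMB9 the expected numbers were 0.523 and 0.120, so that 0 is not a detectable difference.

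Outside the list, IFNB1, the gene of interferon-β, had 3 UMIs in all 4 libraries together, and all 3 were in cell A. The 7-day share of UMIs held by both cells was 22.1% for HERC5, the main ISG15 ligase (11 and 18 UMIs), and 9.25% for PMAIP1 (NOXA), a pro-apoptotic gene (61 and 34). CCL5, a chemokine of T cells, had 56 and 51 UMIs, but another 7-day cell had 356. When all genes were ordered by their lower excess in the 2 cells, 7 of the first 20 were interferon-stimulated genes of the list: OASL, IFIT2, IFIT1, IFIT3, ISG15, PARP14 and SAMD9. The first 4 of these had chosen the cells, so that 3 were not used in the choice. The list holds 41 of the 33694 genes, and 25 of the 12694 that averaged at least 1 CPM.

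Cell A had 83112 UMIs, the 6th highest of 569 cells, 5.72% mitochondrial UMIs and a mark as a doublet by Scrublet (score 0.235). Cell B had 19093 UMIs, fewer than all but 22 cells, and 10.2% mitochondrial UMIs (median of the others 6.26%), and was not marked. Neither barcode occurred in another library, although 23 barcodes were shared between pairs of libraries. KRT8 had 20 and 2 UMIs where the other cells' level would have given 72.1 and 16.6, and KRT18 had 64 and 9 against 115 and 26.3. Other epithelial markers did not follow in both cells. KRT19 was lower only in cell A, with 23 UMIs against 48.3, and had 29 against 11.1 in cell B. EPCAM had 19 and 9 against 24.7 and 5.67, and CDH1 7 and 2 against 6.79 and 1.56. No UMI of PTPRC, CD14, LYZ or CD68 was found in either. Whether doublet formation or low RNA quality has a part in these cells was not tested.

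**Figure D4:**
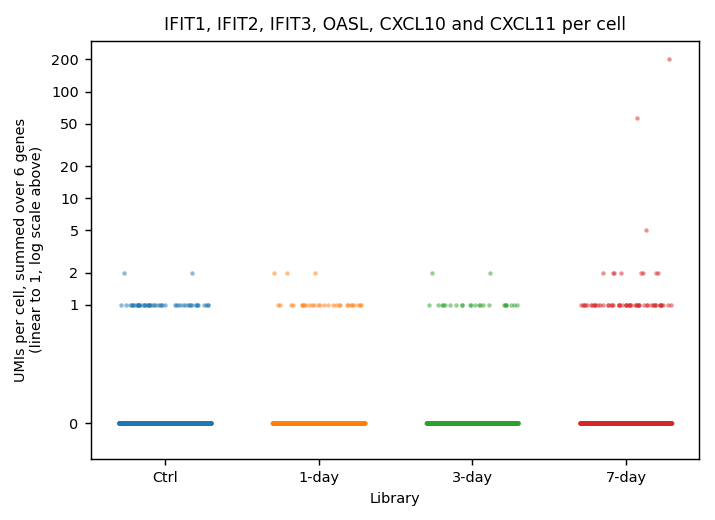
UMIs of IFIT1, IFIT2, IFIT3, OASL, CXCL10 and CXCL11 summed in each analysed cell, by library (each point is a cell, linear scale to 1 and log scale above). Cells A and B at 7-day stand at 200 and 57, no other 7-day cell exceeds 5, and no cell of the other libraries exceeds 2.

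**Figure D5:**
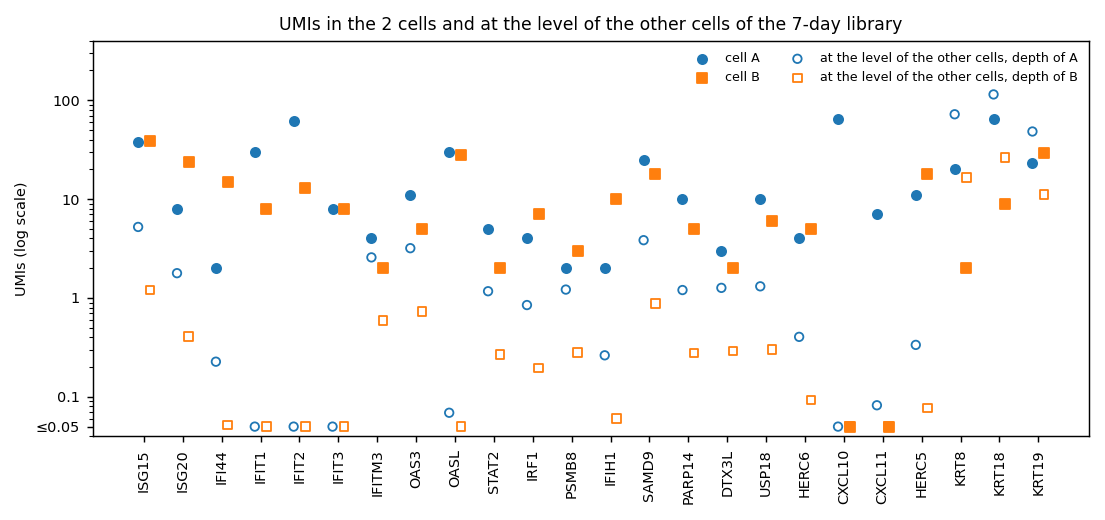
UMIs in cell A (filled circles) and cell B (filled squares) of the interferon-stimulated genes with at least 5 UMIs in the pair, of HERC5 and of 3 keratins (log scale, values of 0.05 or less drawn at the lowest tick). Open symbols give the number expected at the level of the other 7-day cells and the cell's depth; CXCL10 is at 64 in cell A and 0 in cell B, KRT8 and KRT18 lie below expectation in both cells, and KRT19 lies below it in cell A and above it in cell B (29 against 11.1).

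The other genes of the pathway were read from a list of 68 genes, of which 47 averaged at least 1 CPM. At least 2-fold above Ctrl were 7 at 1-day, 9 at 3-day and 16 at 7-day, and 2, 2 and 1 were at least 2-fold lower (the shares of all genes are those given for the same comparisons above). Ligands were almost absent, with 6 of 9 lacking any UMI. All 9 receptor and kinase genes were expressed, and 3 of them were at least 2-fold higher at 7-day (background 12.9%). IFNAR2, a chain of the type I receptor, went from 15.04 CPM in Ctrl to 49.9 at 7-day, a log2 ratio of 1.73 (1.57 to 1.89). IFNAR1, its partner, had a ratio of 0.64 (0.49 to 0.79). IFNLR1, the receptor chain specific to type III interferon, had 14 UMIs in Ctrl and 52 at 7-day. At 0.467, 1.03, 1.28 and 2.05 CPM, IFNLR1 averaged 1 CPM only through the 7-day library. It is among the 3 receptor and kinase genes and among the 7, 9 and 16 genes counted above.

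Sensors and adaptors, and inhibitors of signaling, each had 6 genes with a mean of at least 1 CPM. In each group 2 of 6 were at least 2-fold above Ctrl at 7-day (background 12.9%). TMEM173 (STING), the adaptor of the DNA sensor cGAS, had 9, 35, 76 and 87 UMIs, a 7-day ratio of 3.51 (2.52 to 4.69). IKBKE, a kinase that activates IRF3, was at 9.67 CPM in Ctrl and 29.9 at 7-day. Of the negative regulators, SOCS1, which blocks JAK kinases, had 39, 119, 305 and 340 UMIs, a ratio of 3.36 (2.88 to 3.88). SOCS3 had 183 and 511 UMIs in Ctrl and at 7-day, a ratio of 1.72.

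Of the other interferon-induced genes, 9 of the 26 with a mean of at least 1 CPM were at least 2-fold above Ctrl at 7-day (background 12.9%). Only LY6E was at least 2-fold lower (background 7.85%), from 370.3 CPM to 94.6. HERC5, among the 9, had a log2 ratio of 1.12, which fell below 2-fold, to 0.77, without cells A and B. The median log2 ratio over the 26 genes was 0.50. RSAD2 (viperin) had 10, 3, 1 and 0 UMIs. The higher 7-day levels of TNFSF10 (TRAIL), 52.9 CPM against 16.0, and GBP3, 35.1 CPM against 11.7, were not confined to cells A and B, which held 0.820% and 0.897% of their 7-day UMIs.

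The cells carried the markers of the labelled epithelial line. KRT8, KRT18, KRT19, EPCAM and CDH1 were expressed in every library, but MUC16 was at 2.97 CPM in Ctrl and 0.197 at 7-day and PAX8 had at most 10 UMIs in any library. T and NK cell markers summed to at most 0.200 CPM, with PTPRC, CD2, NKG7 and GNLY at 0 in all 3 treated libraries. Of 6 myeloid markers CD68 (46, 99, 152 and 157 UMIs) and CSF1R (0, 75, 205 and 88) were higher in the treated libraries, whereas CD14 and LYZ had at most 15 UMIs in a library and FCGR3A none. CD79A, of the 4 B and plasmacytoid cell markers, had 84, 89, 128 and 200 UMIs and the other 3 none. Of the endothelial markers CDH5 had 161 UMIs in Ctrl and 8 at 7-day. Cells A and B had no UMI of any immune marker listed.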

How the data were processed

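The authors deposited raw UMI counts, with a row per gene and a column per cell; the submitters' processing notes name Cell Ranger 2.0.1 and GRCh38, and the authors' methods state default parameters. The last listed cell of each table, which was incomplete, was dropped. Cells with more than 200 genes and at most 20% mitochondrial UMIs were retained (3144 of 3170). Counts were summed per library, which has 25382817 to 32949874 UMIs. With 1 library per group there is no replicate and no p-value. Intervals are exact 95% Poisson, conditional or binomial intervals. CPM are scaled to a library's summed UMIs. A count of 0 enters a log2 ratio as a floor of 3 counts, and no ratio is given where both counts are at or under 3. Doublets (Scrublet in scanpy 1.11.5) marked 33 cells (1.05%), which were retained. Cell cycle phases came from the phase genes in Seurat 5.3.0. Factors came from edgeR 4.0.16 (TMM only). Thinning to 18000 UMIs left out 89, 37, 28 and 20 cells. Gene positions are from GENCODE 44, where 12 of the 41 genes overlap another gene on the same strand and 24 on the opposite strand. Members and lists were chosen with earlier results of these data known. Genes described in full average at least 1 CPM and differ at least 2-fold from Ctrl, or have 25% of at least 30 UMIs in 10 cells. IFNB1, HERC5, PMAIP1 and CCL5 in cells A and B were singled out after their values were seen. The routines were tested on simulated data. A gene of the pathway list is not reported here.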

Additional observations from a re-analysis of the deposited data

Results flagged for a closer look

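Signals outside the 41 genes were IFNB1, with 3 UMIs in cell A and no UMI in Ctrl, HERC5, of whose 7-day UMIs cells A and B held 22.14%, and GBP5, with 75 UMIs at 7-day and none in Ctrl. Only 3 of the 75 GBP5 UMIs lay in cells A and B, and 57 other cells had at least 1.

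Several genes lay on opposite sides of Ctrl at different time points, with intervals that left 0 on each side. The log2 ratio of IFIT2 was −3.84 at 1-day and 3.02 at 7-day, of which the first rests on 1 UMI and the second on cells A and B (0.45 without them). OAS3 was at −1.05, 0.283 and 0.769 at 1-day, 3-day and 7-day, but its 3-day value was −0.10 in G1 cells. PSMB8 was at −0.297 at 1-day and 0.742 at 7-day. DTX3L was at −0.400, 0.281 and 0.912. With 1 library per time point, these differences between time points were not tested.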

How the results depend on the processing

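No paired analysis was possible because each group is 1 library. Of the log2 ratios of single genes recomputed under 10 alternatives, 907 stayed within their counting interval, 63 moved outside it and 3 that had been past 2-fold changed sign. IFIT1 (−0.89) and IFIT3 (−0.075) at 7-day did so without cells A and B, an alternative chosen after seeing the data, and IFITM2 at 1-day (−1.06) among G1 cells. The alternatives differed widely. In G1 cells 63 values stayed and 29 moved, and after thinning 79 stayed and 17 moved. Without the 10 cells with most UMIs of each gene 75 stayed and 11 moved. Each of the remaining alternatives moved at most 3. Cells A and B held 88.4% and 80% of the 7-day UMIs of IFIT1 and IFIT3. IFITM2 had 8 UMIs at 1-day and 3 in Ctrl, and the cause of its change in G1 cells was not tested. Another 32 values that were under 2-fold in size also changed sign, among them UBE2L6 at 7-day after thinning. Taking the mean level over the libraries other than 7-day, also chosen after seeing the data, left 21 genes and moved none of the counts against Ctrl below by over 1.5 times. The number of genes at least 2-fold above Ctrl at 1-day (2) was 1 after thinning, 1 without the 10 cells with most UMIs of each gene, 1 with a floor of 5 CPM and 4 with no floor. The number below at 1-day (3) was 1 without the 10 cells, 1 with a floor of 5 CPM, 6 with no floor and 6 at 1.5-fold. The number above at 3-day (2) was 4 after thinning, 4 in G1 cells, 1 with a floor of 5 CPM, 4 with no floor and 7 at 1.5-fold, and the number below (2) was 1 without the 10 cells, 0 with a floor of 5 CPM, 5 with no floor and 6 at 1.5-fold. At 7-day the number above (12) was 7 without the 10 cells, 3 with a floor of 5 CPM and 19 with no floor, and the number below (1) was 0, 0 and 2 under the same alternatives. A higher floor and leaving out 10 cells also leave fewer genes to count, 13 and 19. With no floor the 7-day count takes in genes such as CXCL10 and IFIT1, whose UMIs lay mostly in cells A and B. Shares of all genes are not given under these alternatives, so the counts cannot be set against a background.

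The 1-day median of −0.05 was −0.17 with a mitochondrial limit of 10%, 0.053 with TMM factors, 0.10 as a mean over cells and −0.33 in G1 cells. The TMM factors moved the 1-day median of all genes from −0.07 to 0.03. The 3-day median of 0.15 was 0.27 without doublets, 0.020 in G1 cells and 0.28 without the 10 cells. The 7-day median of 0.91 was 0.80 with the limit of 10%, 0.77 without the 10 cells and 0.78 without cells A and B. The 7-day to Ctrl log2 ratio of the summed level, 0.67, was 0.72 without SAMD9, ISG15 and OAS3 and 0.59 without cells A and B. Leaving out doublets, and so cell A, gave 7-day ratios of 0.50 for IFIT1, 1.36 for IFIT2 and 1.48 for OASL. The limit of 10%, and so no cell B, gave 2.01, 3.13 and 1.56. Under both conditions a single cell still carried part of the level. Depth limits the genes under 1 CPM, and only differences between libraries, not between treatments, can be read.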
